A study of Mus musculus with 9 samples.

Results

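Serum amyloid A and other acute-phase genes were followed in mouse lung as 8 genes chosen by symbol: the serum amyloids Saa1, Saa2 and Saa3, orosomucoid 1 (Orm1), lipopolysaccharide-binding protein (Lbp), haptoglobin (Hp), ceruloplasmin (Cp) and pentraxin 3 (Ptx3). All 8 were found among the 25526 rows of the expression table. All 8 were also among the 14540 genes that reached 1 FPKM (fragments counted per length of transcript and per depth of the library) in at least 3 of the 9 libraries and were tested. No normal library reached 1 FPKM for Saa1, Saa2 or Ptx3, so these 3 passed only through the other groups and a difference from normal was built into their selection.

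Whole-lung RNA was sequenced from 9 mice in 3 groups of 3 animals. The groups were normal mice, a pulmonary fibrosis model, and mice labelled PepNzymeSOD-CAT, a self-assembled polypeptide nanozyme designed for inhalation and named for superoxide dismutase and catalase activity. The labels give a strain, an age, a sex, an inducer, a dose and a time point for none of the groups, and they do not state in words that the nanozyme mice also received the model. The study's design text gives the mechanism of the nanozyme in lung fibrosis as its question. Whole tissue was homogenised, so in these bulk samples fewer cells of a type and less RNA per cell cannot be told apart.

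Acute-phase proteins are plasma proteins whose synthesis shifts during inflammation, mostly in hepatocytes, under interleukin-6 acting through STAT3 and interleukin-1 and tumour necrosis factor acting through NF-kB and C/EBP factors. Several are also made outside the liver: mouse Saa3 is a largely extrahepatic serum amyloid made by macrophages, epithelial cells and adipocytes, and Ptx3 is made by myeloid and stromal cells. Haptoglobin and ceruloplasmin handle haemoglobin and iron, Lbp presents bacterial lipopolysaccharide, and Ptx3 binds complement C1q.

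The serum amyloid genes lie together on chromosome 7 (GRCm38, GENCODE vM21 annotation), and all 8 genes are annotated as protein-coding. Saa3 spans positions 46711998 to 46715700 on the minus strand, Saa1 46740497 to 46742980 on the minus strand and Saa2 46751790 to 46754313 on the plus strand. Saa1 and Saa2 thus point away from each other. Orm1 lies on chromosome 4 from 63344560 to 63348163, next to Orm3 and Orm2. Lbp is on chromosome 2 (158306493 to 158332852), Cp and Ptx3 are on chromosome 3 (19957054 to 20009145 and 66219910 to 66225805), and Hp is on chromosome 8 (109575128 to 109579172).

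Promoters of 5 of the 8 genes (Saa1, Saa2, Saa3, Ptx3 and Cp) were matched in RefSeq sequence of build GRCm38.p6, each holding the 250 bases before and 50 bases after an annotated start. The 4 shown are those of the genes with the lowest levels in normal lung among these 5. They are written 5′ to 3′ in the direction of the gene. Capitals mark matches to a C/EBP motif (TTGCNNAA, searched on both strands) and, in Ptx3, to the NF-kB motif, where matches on both strands overlap.
Saa3, chr7:46715627-46715926, minus strand: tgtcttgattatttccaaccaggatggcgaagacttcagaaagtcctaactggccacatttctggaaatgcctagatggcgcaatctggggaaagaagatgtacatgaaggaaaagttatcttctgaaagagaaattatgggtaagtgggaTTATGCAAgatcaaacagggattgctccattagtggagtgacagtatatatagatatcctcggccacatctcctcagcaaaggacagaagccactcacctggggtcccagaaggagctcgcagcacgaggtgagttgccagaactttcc
Saa1, chr7:46742931-46743230, minus strand: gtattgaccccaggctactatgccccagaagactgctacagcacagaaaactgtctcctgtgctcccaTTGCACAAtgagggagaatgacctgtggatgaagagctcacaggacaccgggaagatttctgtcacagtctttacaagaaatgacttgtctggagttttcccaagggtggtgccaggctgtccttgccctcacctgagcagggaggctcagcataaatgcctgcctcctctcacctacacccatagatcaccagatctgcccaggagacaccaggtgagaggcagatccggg
Saa2, chr7:46751583-46751882, plus strand: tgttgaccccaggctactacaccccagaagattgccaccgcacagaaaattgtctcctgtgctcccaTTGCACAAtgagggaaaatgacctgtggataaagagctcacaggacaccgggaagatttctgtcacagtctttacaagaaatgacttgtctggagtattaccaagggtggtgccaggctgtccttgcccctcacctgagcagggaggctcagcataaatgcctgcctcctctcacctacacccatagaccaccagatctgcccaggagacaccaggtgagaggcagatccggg
Ptx3, chr3:66219637-66219936, plus strand: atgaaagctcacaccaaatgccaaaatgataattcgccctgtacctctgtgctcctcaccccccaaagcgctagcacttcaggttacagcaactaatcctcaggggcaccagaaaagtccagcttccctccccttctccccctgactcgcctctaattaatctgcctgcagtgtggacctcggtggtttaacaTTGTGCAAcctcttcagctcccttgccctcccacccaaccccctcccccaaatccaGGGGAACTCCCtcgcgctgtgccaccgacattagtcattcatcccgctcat

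Each of these 4 sequences held a C/EBP match, as 10.8% of 32851 mouse promoters of the same length did. The match began 182 bases before the start in Saa1, 183 before it in Saa2, 99 before it in Saa3 and 57 before it in Ptx3 (first base as printed). Saa1 and Saa2 carried the same 8 letters, TTGCACAA, inside promoters that were 96.0% identical over 299 aligned bases. The Saa3 promoter was 78.0% identical to that of Saa1 over 246 aligned bases, and its match read TTATGCAA. Of the 2 annotated Cp starts, the downstream one had a C/EBP match 70 bases before it and the upstream one had none. The NF-kB motif was found in Ptx3 alone among these promoters, at the start site itself, against 4.51% of all promoters, and 0.377% of all promoters held both motifs. A STAT motif (TTCNNNGAA) was found in none of the 6 sequences and in 8.30% of all promoters. These matches describe letters in the window and say nothing of binding.

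Before the comparisons, the libraries were placed by their overall profile. The first principal component held 62.8% of the variance. Normal libraries lay between -63.5 and -54.8 on it and model libraries between 39.5 and 61.2. Nanozyme replicates 1 and 3 lay at -14.4 and -9.68, but nanozyme replicate 2 lay at 43.3, inside the model range, so results that involve the nanozyme group are given with and without it. No measured transcript marks the treatment, so the label of this library could not be checked and is in question, and nanozyme means and calls over 3 replicates rest on that label. Replicate 2 below means the library so labelled. Summed FPKM ranged from 443746 to 519772. Absolute read depth is not known from FPKM, but steps in the lowest values placed the relative depth of the libraries between 0.811 and 1.04 of that of normal replicate 1. No dates are given, and the nanozyme libraries carry numbers outside the run of the other libraries, so a preparation batch and the nanozyme group cannot be told apart.

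**Figure D1:**
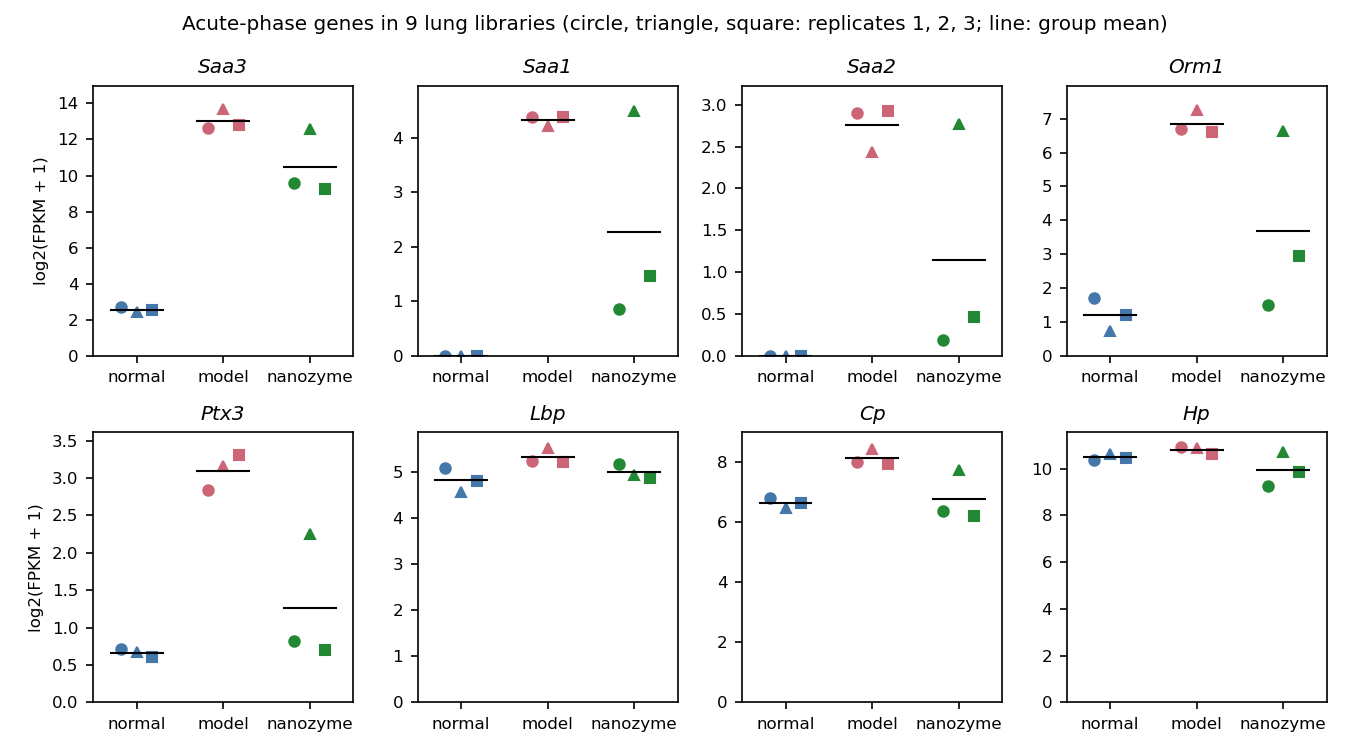
Level of each gene, as log2(FPKM + 1), in the 9 libraries; circles, triangles and squares are replicates 1, 2 and 3 and horizontal lines are group means (n = 3). Nanozyme replicate 2, the green triangle, sits near the model libraries for Saa3, Saa1, Saa2, Orm1 and Hp.

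The model lungs held more RNA of nearly the whole set. In the comparison of model with normal lungs, 7 of the 8 genes rose at an adjusted p under 0.05 and none fell, where 17.4% of the 14540 tested genes were called higher and 22.7% lower (limma on log2(FPKM + 1), two-sided, Benjamini-Hochberg over all tested genes). Among the 5 genes other than Saa1, Saa2 and Ptx3, 4 rose (Saa3, Orm1, Lbp and Cp). All 3 model values lay above all 3 normal values for each of the 8 genes, as they did for 23.5% of tested genes. Saa1, Saa2 and Ptx3 are among the 8, and a difference from normal was built into their selection. Hp was the gene that did not pass the test.

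Saa3 had the largest difference of the 8 on the log2(FPKM + 1) scale. It stood at 5.61, 4.43 and 4.86 FPKM in the normal lungs, at 6384, 13203 and 7175 FPKM in the model lungs and at 759, 6100 and 619 FPKM in the nanozyme lungs. Every normal library was low, every model library was high, and the nanozyme libraries split, with replicate 2 just under the lowest model library. The group means were 4.97 ± 0.601 FPKM in normal and 8921 ± 3729 FPKM in model lungs (SD, n = 3), a ratio of 1796. The difference on the log2(FPKM + 1) scale was 10.47 ± 0.77 (SE), with a limma adjusted p of 0.000152. In rank, Saa3 went from between 9396 and 10047 among all genes in the normal libraries to 4, 1 and 4 in the model libraries. It alone made up 1.39%, 2.54% and 1.62% of the summed FPKM of the model libraries.

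Saa1 and Saa2, the serum amyloids known as the main circulating forms made by the liver, were listed at 0 in all 3 normal lungs. Saa1 reached 19.8, 17.6 and 19.9 FPKM in the model lungs and 0.818, 21.4 and 1.76 FPKM in the nanozyme lungs. Saa2 reached 6.45, 4.43 and 6.59 FPKM in the model lungs and 0.137, 5.83 and 0.378 FPKM in the nanozyme lungs. Both were high in all model libraries, and in the nanozyme group they were high in replicate 2 alone. No fold is given against a group at 0, where the depth behind the value is not known. The log2(FPKM + 1) difference between model and normal was 4.33 ± 0.78 for Saa1 (limma adjusted p = 0.00396). For Saa2 it was 2.75 ± 0.58 (limma adjusted p = 0.00749). These sizes rest on the pseudocount, since a pseudocount of 0.1 gave 7.58 and 5.87.

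The 3 amyloids differed in scale. Saa3 exceeded Saa1 by 322, 752 and 361 times in the model libraries and by 928, 286 and 353 times in the nanozyme libraries, in FPKM. Saa1 exceeded Saa2 by 3.08, 3.96 and 3.01 times in the model libraries. Their transcripts are alike: the principal Saa1 and Saa2 transcripts were 94.4% identical, and 9.11% of the 50-base windows of Saa1 occurred unchanged in Saa2 against 1.61% in Saa3. No 100-base window of Saa1 occurred in either. How shared reads were assigned is not given in the sources used here, so the split between Saa1 and Saa2 is uncertain. Whether reads of the far more abundant Saa3 add to the Saa1 level was not tested, so the ratio of Saa3 to Saa1 is uncertain too.

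Saa4, the constitutive serum amyloid of the same cluster and not among the 8 genes, was listed at 0 in every normal lung as well. It stood at 5.26, 4.60 and 8.19 FPKM in the model lungs and at 0.0639, 5.48 and 0.251 FPKM in the nanozyme lungs. Model and normal differed by 2.78 ± 0.60 on the log2(FPKM + 1) scale (limma adjusted p = 0.00820), but Saa4, like Saa1 and Saa2, entered the test only through libraries of the other groups. The 4 amyloid genes span 42316 bases, and the genes beside them did not pass the test: Saal1, 1318 bases before the cluster, differed by 0.11 ± 0.11 (limma adjusted p = 0.457). Hps5, 6153 bases after it, differed by -0.16 ± 0.12 (limma adjusted p = 0.305).

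Orm1 encodes a heavily glycosylated plasma protein that binds drugs and lipids. It stood at 2.26, 0.658 and 1.32 FPKM in normal lungs, at 103, 152 and 95.9 FPKM in model lungs and at 1.83, 97.5 and 6.72 FPKM in nanozyme lungs. The normal and model groups were far apart, nanozyme replicate 1 lay within the normal range and replicate 2 within the model range. Group means were 1.41 ± 0.806 FPKM in normal and 117 ± 30.7 FPKM in model lungs (SD, n = 3), a ratio of 82.8. The log2(FPKM + 1) difference was 5.64 ± 1.08 (limma adjusted p = 0.00500).

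The paralogues Orm2 and Orm3 showed the same order of groups at lower levels. Orm2 stood at 0.0698, 0.141 and 0.244 FPKM in normal, 13.9, 17.2 and 8.89 FPKM in model and 0.504, 12.0 and 0.565 FPKM in nanozyme lungs. Orm3 stood at 0.351, 0.115 and 0.372 FPKM in normal, 2.64, 3.22 and 3.31 FPKM in model and 0, 2.67 and 0.340 FPKM in nanozyme lungs. Both rose in model lungs, by 3.59 ± 0.74 and 1.67 ± 0.42 on the log2(FPKM + 1) scale (limma adjusted p = 0.00653 and 0.0141). No normal library reached 1 FPKM for either, so they too entered the test only through the other groups and their p-values are no separate support. The Orm1 transcript was 91.0% identical to that of Orm2 and shared 20.4% of its 50-base windows and 6.95% of its 100-base windows with it, so reads of these copies may have been divided between them.

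Ptx3 encodes a long pentraxin, a soluble pattern-recognition protein. It stood at 0.642, 0.590 and 0.524 FPKM in normal, 6.16, 7.91 and 8.87 FPKM in model and 0.763, 3.76 and 0.631 FPKM in nanozyme lungs. The model libraries were all high, nanozyme replicate 2 was intermediate, and the other nanozyme libraries were close to normal. The group means were 0.585 ± 0.0592 FPKM in normal and 7.65 ± 1.38 FPKM in model lungs (SD, n = 3), a ratio of 13.1. The log2(FPKM + 1) difference was 2.44 ± 0.37 (limma adjusted p = 0.00210).

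Cp, a copper-carrying ferroxidase that oxidises iron for loading onto transferrin, was well expressed already in normal lung. It stood at 110, 87.1 and 98.4 FPKM in normal, 253, 348 and 244 FPKM in model and 81.2, 212 and 72.7 FPKM in nanozyme lungs. Model libraries were all above normal libraries, while nanozyme replicates 1 and 3 were below every normal library. The group means were 98.6 ± 11.7 FPKM in normal and 282 ± 57.6 FPKM in model lungs (SD, n = 3), a ratio of 2.86. The log2(FPKM + 1) difference was 1.49 ± 0.37 (limma adjusted p = 0.0134).

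Lbp, which hands lipopolysaccharide to CD14 and on to Toll-like receptor 4, changed least among the genes that were called. It stood at 33.0, 22.9 and 27.3 FPKM in normal, 37.1, 45.5 and 36.2 FPKM in model and 35.3, 29.9 and 28.2 FPKM in nanozyme lungs. The model values were the highest, and the nanozyme values lay between the groups or within the normal range. Means were 27.7 ± 5.04 FPKM in normal and 39.6 ± 5.16 FPKM in model lungs (SD, n = 3), a ratio of 1.43. The log2(FPKM + 1) difference was 0.51 ± 0.16 (limma adjusted p = 0.0330). This call did not hold without normal replicate 2 (adjusted p = 0.109), normal replicate 3 (0.0899), model replicate 1 (0.0508) or model replicate 2 (0.0927), nor with no filter on low values (0.0624), with quantile normalization (0.0550) or with libraries scaled without the 100 most abundant genes (0.0642), all by limma.

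Hp, which captures free haemoglobin, was the highest of the 8 genes in normal lung. It stood at 1301, 1556 and 1417 FPKM in normal, 1923, 1898 and 1559 FPKM in model and 616, 1676 and 914 FPKM in nanozyme lungs. The lowest model library barely exceeded the highest normal library, and nanozyme replicates 1 and 3 lay below every normal library. Means were 1424 ± 128 FPKM in normal and 1794 ± 203 FPKM in model lungs (SD, n = 3), a ratio of 1.26. The log2(FPKM + 1) difference was 0.33 ± 0.32 and did not pass the test (limma adjusted p = 0.439). All 6 red-cell transcripts measured fell in the model, where 22.7% of tested genes were called lower. Their sum was 3531 to 4255 FPKM in normal and 173 to 320 FPKM in model libraries. It stood at 791, 390 and 132 FPKM in nanozyme replicates 1, 2 and 3. The part of red cells in the Hp values was not tested.

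The order of the 8 genes by FPKM therefore differed between groups. In normal lung it ran Hp, Cp, Lbp, Saa3, Orm1, Ptx3 and then Saa1 and Saa2 at 0, and the neighbours Orm1 and Ptx3 did not differ beyond 1 SD of each. In model lung it ran Saa3, Hp, Cp, Orm1, Lbp, Saa1, Ptx3 and Saa2, and the ranges of neighbours overlapped for Ptx3 and Saa2 alone. In the nanozyme lungs the order by mean was Saa3, Hp, Cp, Orm1, Lbp, Saa1, Saa2 and Ptx3. There the ranges of neighbours overlapped for 5 of the 7 adjacent pairs, Hp and Cp and Lbp and Saa1 being the exceptions. Together the 8 genes made up 0.293% to 0.331% of summed FPKM in normal libraries, 1.90% to 3.02% in model libraries, and 0.320%, 1.68% and 0.343% in nanozyme replicates 1, 2 and 3.

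**Figure D2:**
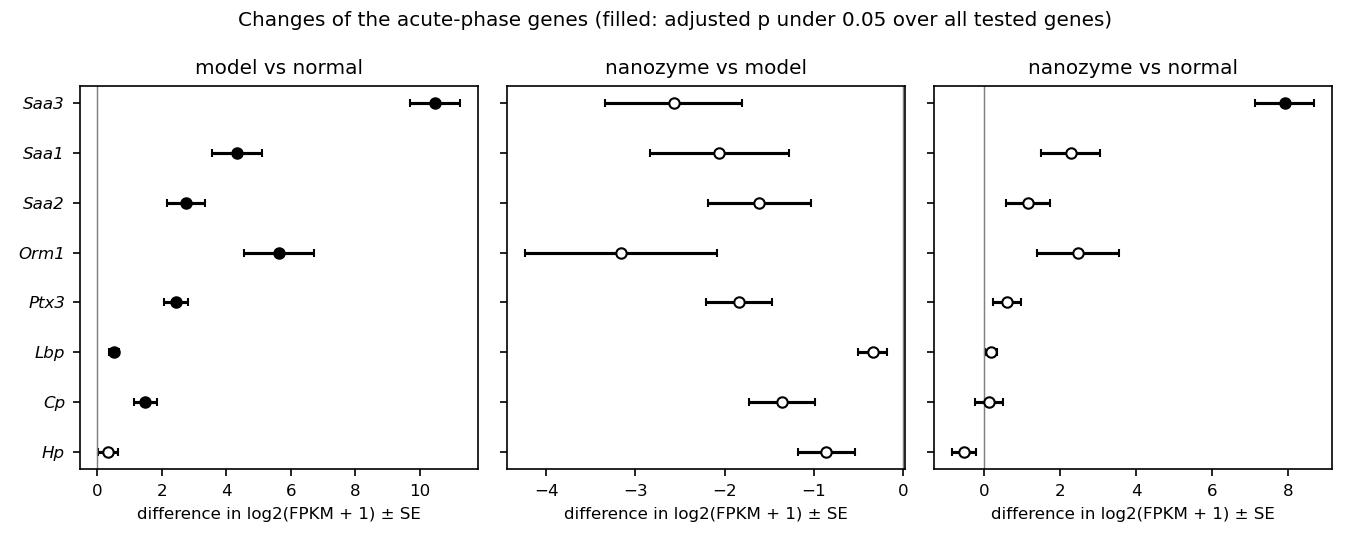
Difference in log2(FPKM + 1) with its standard error for each gene in the 3 comparisons, from one fit over 9 libraries; filled points passed an adjusted p of 0.05. Filled points are 7 of 8 genes in model against normal, none in nanozyme against model and Saa3 in nanozyme against normal.

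In the nanozyme lungs the mean of every one of the 8 genes was below the model mean, but none of the differences passed the test over all 3 replicates. By limma, 0 of the 8 genes and 0% of all 14540 tested genes were called, and the smallest adjusted p of any gene was 0.126. At an unadjusted p under 0.05 there were 3211 tested genes and 7 of the 8, Lbp being the exception. The differences in log2(FPKM + 1) were -2.57 ± 0.77 for Saa3, -2.06 ± 0.78 for Saa1, -1.61 ± 0.58 for Saa2 and -3.16 ± 1.08 for Orm1. For Ptx3 the difference was -1.84 ± 0.37, for Cp -1.36 ± 0.37, for Hp -0.86 ± 0.32 and for Lbp -0.34 ± 0.16. Limma adjusted p-values of the 8 ranged from 0.181 for Saa3, Ptx3 and Cp to 0.246 for Lbp. All nanozyme values lay below all model values for Saa3, Lbp, Ptx3 and Cp, as they did for 5.83% of tested genes.

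The nanozyme libraries were unequal. Saa3 stood at 8.51%, 68.4% and 6.94% of the model mean in nanozyme replicates 1, 2 and 3, and Orm1 stood at 1.57%, 83.3% and 5.74%. For Saa1 the values were 4.29%, 112% and 9.20%, and for Saa2 they were 2.35%, 100% and 6.49%. Ptx3 stood at 9.98%, 49.1% and 8.25%, Cp at 28.8%, 75.1% and 25.8% and Hp at 34.4%, 93.4% and 51.0%. In these 7 genes replicate 2 was the highest nanozyme library. In Lbp it was replicate 1, with 89.1%, 75.5% and 71.1%.

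**Figure D3:**
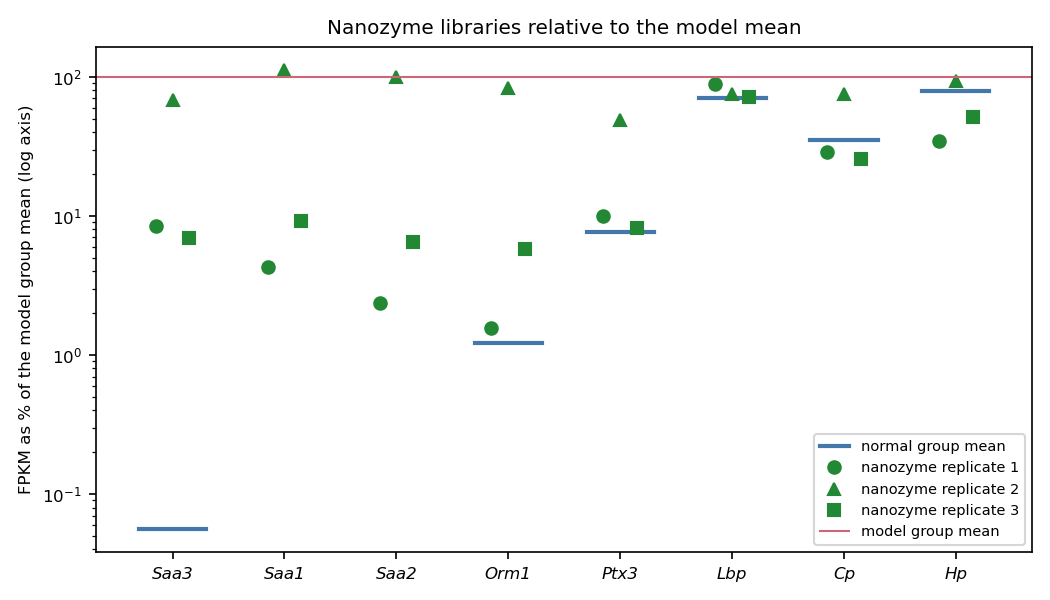
Each nanozyme library as a percentage of the model mean, on a log axis; the red line is the model mean (100%) and blue bars are the normal mean, which is 0 and not drawn for Saa1 and Saa2. Replicate 2 (triangle) lies above replicates 1 and 3 for every gene except Lbp.

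Without nanozyme replicate 2, 7 of the 8 genes were called lower in nanozyme than in model lungs, where 9.64% of tested genes were. Replicate 2 was set apart for its model-like profile in these same data. A wider gap to the model and a smaller spread were thus built in. The p-values of this and the other fits without replicate 2 are no separate support. Saa1, Saa2 and Ptx3 also entered the test only through the model and nanozyme libraries. The differences in log2(FPKM + 1) were then -4.63 ± 0.45 for Orm1, -3.62 ± 0.29 for Saa3, -3.16 ± 0.18 for Saa1 and -2.43 ± 0.18 for Saa2. Those of Ptx3, Cp and Hp were -2.34 ± 0.16, -1.84 ± 0.18 and -1.25 ± 0.20. Limma adjusted p-values of these 7 ranged from 0.000227 for Saa1 to 0.00542 for Hp. Lbp, at -0.31 ± 0.18, did not pass (limma adjusted p = 0.256). A fit that gave each library a weight by its own spread called the same number, 7 of 8. Its weights were drawn from these same values, so it is no separate support either. Without replicate 1 or without replicate 3 in place of replicate 2, 0 of the 8 genes were called.

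Against normal lungs, Saa3 was the gene of the set that was called in the nanozyme group, where 8.39% of tested genes were called higher. It was higher by 7.90 ± 0.77 in log2(FPKM + 1) (limma adjusted p = 0.000853), and the 3 libraries stood at 153, 1228 and 125 times the normal mean. It ranked 48, 5 and 80 among all genes of nanozyme replicates 1, 2 and 3. Without replicate 2 it was still called, at 6.85 ± 0.29 (limma adjusted p = 8.05e-05). All nanozyme values exceeded all normal values for Saa1, Saa2 and Saa3, as they did for 22.1% of tested genes. Saa1 and Saa2 were listed as absent in every normal library, so any nanozyme value above that gives this outcome. This comparison and the comparison with the model share the nanozyme libraries.

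The other genes did not pass the test against normal over 3 replicates. The differences were 2.27 ± 0.78 for Saa1, 1.14 ± 0.58 for Saa2 and 2.47 ± 1.08 for Orm1 in log2(FPKM + 1). They were 0.59 ± 0.37 for Ptx3, 0.17 ± 0.16 for Lbp, 0.13 ± 0.37 for Cp and -0.53 ± 0.32 for Hp. Limma adjusted p-values ran from 0.0872 for Saa1 to 0.846 for Cp. Without replicate 2, Saa1 was called higher at 1.16 ± 0.18 (limma adjusted p = 0.00622), where 9.31% of tested genes were called higher. Saa1 stood at only 0.818 and 1.76 FPKM in nanozyme replicates 1 and 3. In every fit a difference from normal was built into the selection of Saa1. In the fit without replicate 2, Hp was called lower at -0.92 ± 0.20 (limma adjusted p = 0.0260), where 4.26% were called lower. Without replicate 1, Saa1 and Orm1 were called higher, at 2.97 ± 0.72 and 3.57 ± 0.91 (limma adjusted p = 0.0414 and 0.0498). The Cp difference changed sign to -0.35 ± 0.18 without replicate 2 and was called in neither fit.

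Hepatocyte transcripts were near 0 in these lungs. None of 16 hepatocyte markers reached the level needed for testing, 5 of them were listed at 0 in every library, and their sum stayed between 1.01 and 4.04 FPKM. Albumin (Alb) stood at 0.530, 0.273 and 0.564 FPKM in normal and at 0, 0.0315 and 0.0651 FPKM in model lungs. Tdo2, of the same list, stood at 0.480, 0.406 and 0.321 FPKM in normal and at 1.15, 0.576 and 1.52 FPKM in model lungs. Neither gene was tested, and no direction is read from values this low. Markers of alveolar type II cells, the surfactant-making cells of the lung, were abundant and uneven in the model. Of 11, 4 fell and none rose, where 22.7% of all tested genes were called lower. Sftpd went the other way, at 728 to 865 FPKM in normal and 1074 to 1289 FPKM in model lungs, and was not called. Sftpa1 and Lamp3 differed by -0.05 and -0.22 in log2(FPKM + 1). The sum of the 11 was 25493 to 32294 FPKM in normal, 10208 to 14308 FPKM in model and 24745, 19408 and 31707 FPKM in nanozyme replicates 1, 2 and 3. Sftpc made up most of every sum (19846 of 25493 FPKM in normal replicate 1). The model sums lay below all others, and the part of these cells in the acute-phase values was not tested.

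Neutrophil and macrophage markers mostly rose in the model as the set did, and alveolar macrophage markers were mixed. Of 12 tested neutrophil markers 11 rose in the model and none fell, with a median log2(FPKM + 1) difference of 4.62 against -0.12 for all tested genes, of which 17.4% were called higher. Of these 11, Ly6g, Cxcr2, Mmp8 and Stfa2l1 had no normal library at 1 FPKM and entered the test only through the other groups. The summed level of the whole list was 56.5 to 340 FPKM in normal, 2620 to 3561 FPKM in model and 1182, 3394 and 1406 FPKM in nanozyme replicates 1, 2 and 3. Ltf, at 300, 8.01 and 143 FPKM in normal lungs, made up most of the sum in normal replicates 1 and 3. It was not called in the model. S100a8, an abundant calcium-binding protein of neutrophils, stood at 400, 1189 and 482 FPKM in nanozyme lungs against 11.8 to 12.9 FPKM in normal and 847 to 1218 FPKM in model lungs. Of 14 macrophage markers 12 rose and none fell (17.4% of all tested genes were called higher), with sums of 4044 to 4965 FPKM in normal, 8254 to 11310 FPKM in model and 6786 to 11273 FPKM in nanozyme libraries. By these sums nanozyme replicate 2 was again the highest nanozyme library in both lists. Lyz2 made up most of every macrophage sum (3695 of 4044 FPKM in normal replicate 1). Mrc1, Apoe and Ms4a7 of the macrophage list were highest in replicate 1 or 3. So were Camp, Ngp, Elane, Mpo and Ltf of the neutrophil list. Against normal, 11 of the 12 tested neutrophil and 10 of the 14 macrophage markers were called higher in nanozyme lungs. The share of all tested genes was 8.39%. Ly6g, Cxcr2, Mmp8 and Stfa2l1 are again among the 11. Of the 8 genes, Saa3 alone was called there. Of 10 alveolar macrophage markers 3 rose (Marco, Chil3 and Itgax) and 1 fell (Fabp1) in the model, with a median difference of 0.06. Over all tested genes 17.4% were called higher and 22.7% lower. In nanozyme against model the median of these 10 markers was 0.76. Without nanozyme replicate 2, 4 were called higher and 1 lower, where 1814 and 1402 of the 14540 tested genes were. The part of these cells in the acute-phase values was not tested.

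Lbp shared its order of libraries with some airway genes and with genes of other lists. The 3 libraries of each group fell in the same order for Lbp as for 6 of 12 airway secretory genes. These were Scgb3a1, Aldh3a1, Bpifb1, Muc5b, Reg3g and Gp2, and 1.06% of tested genes had this order. The adipocyte markers Adipoq, Cfd, Retn and Cidea and the neutrophil marker Ltf had it too. The other lists were not counted in this way. Scgb3a1, a secretoglobin of airway secretory cells, stood at 2836, 54.6 and 1343 FPKM in normal, 787, 2935 and 34.5 FPKM in model and 602, 193 and 54.7 FPKM in nanozyme lungs. Of Saa3, Orm1, Ptx3, Hp and Cp, which were compared in the same way, Cp shared its order with Muc5ac and the others with none of the 12. Orm1 and Cp had the Lbp order in the normal and model groups. They differed from it in the nanozyme group, where replicate 2 was their highest library. Saa1 and Saa2 are tied at 0 in normal lungs and have no order there. In the model 3 of the 12 airway genes fell and none rose, a share near the 22.7% of all tested genes called lower. The genes that fell were Scgb1a1, Scgb3a2 and Cyp2f2, which are not among the 6 that shared the Lbp order. The summed level of the 12 was 73106 to 75528 FPKM in normal and 5662 to 19567 FPKM in model libraries. This pattern was picked after the values were seen, and the part of airway or adipose tissue in the Lbp result was not tested.

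**Figure D4:**
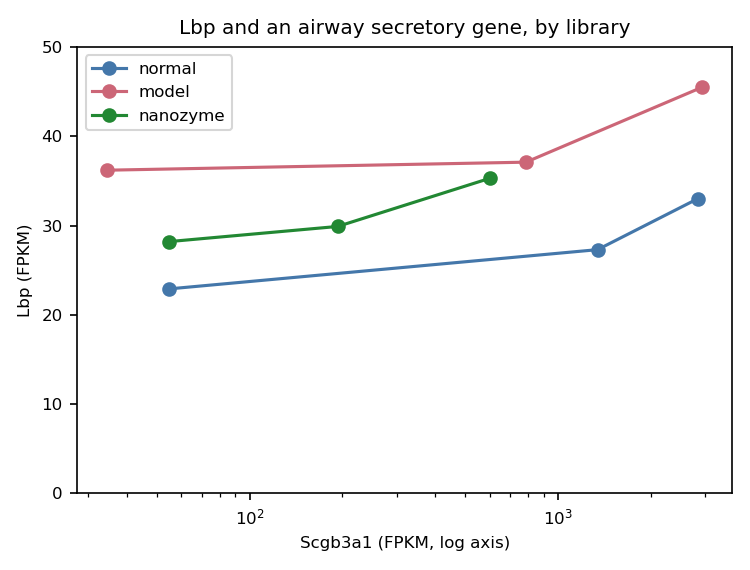
Lbp (FPKM) against the airway secretory gene Scgb3a1 (FPKM, log axis) in each library; lines join the 3 libraries of a group. Within every group the library with more Scgb3a1 has more Lbp, and at similar Scgb3a1 the model libraries lie above the normal ones.

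Most other acute-phase genes moved the same way. Of 30 such genes 20 were tested, and in the model 17 rose and none fell, with a median log2(FPKM + 1) difference of 2.72 against -0.12 for all tested genes, of which 17.4% were called higher. Of these 17, Saa4, Orm2, Orm3 and A2m had no normal library at 1 FPKM and entered the test only through the other groups. Lcn2, which sequesters bacterial siderophores, stood at 76.7, 72.0 and 72.8 FPKM in normal, 3887, 5412 and 3969 FPKM in model and 257, 3526 and 470 FPKM in nanozyme lungs. It rose by 5.87 ± 0.80 in the model (limma adjusted p = 0.00141). Cfb, the protease factor of the alternative complement pathway, rose by 5.81 ± 0.58 (limma adjusted p = 0.000400). Slpi, an antiprotease of mucosal surfaces, rose by 3.83 ± 0.33, and Serping1, the inhibitor of complement C1, by 0.99 ± 0.11 (limma adjusted p = 0.000242 and 0.000700). Hamp, the iron hormone hepcidin, went from 13.8, 1.85 and 11.1 FPKM to 1.02, 2.12 and 0.258 FPKM and did not pass (limma adjusted p = 0.0528).

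**Figure D5:**
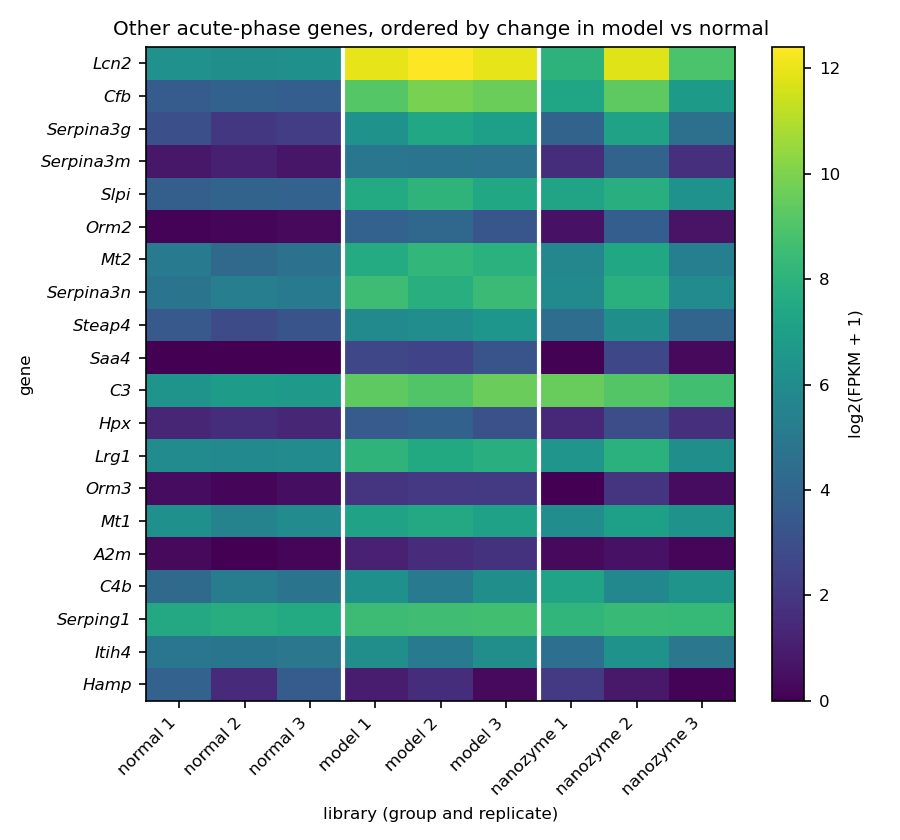
Level of the 20 tested acute-phase genes outside the set, as log2(FPKM + 1), in each library, ordered by the difference between model and normal. Lcn2 is the highest row, and nanozyme replicate 2 resembles the model columns for Lcn2, Cfb, Orm2 and Saa4, while C3 is at a similar level in the model and nanozyme columns.

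In the nanozyme lungs these genes did not form a single pattern of values. C3, the central complement component, stood at 85.5, 112 and 101 FPKM in normal, 648, 522 and 755 FPKM in model and 734, 541 and 398 FPKM in nanozyme lungs. Its nanozyme values overlapped the model values, and it was called against normal at 2.44 ± 0.24 (limma adjusted p = 0.000837). Slpi, at 149, 224 and 81.4 FPKM, likewise was called against normal at 3.26 ± 0.33 (limma adjusted p = 0.000951). In all, 8 of the 20 were called higher against normal and none lower, where 8.39% of tested genes were called higher. Without nanozyme replicate 2, 15 of the 20 were called lower than in the model and 10 higher than in normal. The shares over all tested genes were 9.64% and 9.31%.

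Of the interleukin-6 family and its signalling genes, 10 of 15 tested rose in the model and none fell, with a median difference of 1.24. For this list and the next 3, the shares over all tested genes were 17.4% called higher and 22.7% called lower. Il6 itself stood at 1.54, 0.943 and 1.55 FPKM in normal, 16, 12.9 and 22.3 FPKM in model and 1.37, 15.2 and 1.62 FPKM in nanozyme lungs. The model libraries and nanozyme replicate 2 were high, and the other nanozyme libraries lay near normal. Il6 rose by 2.93 ± 0.65 in the model (limma adjusted p = 0.00915). Socs3, the feedback inhibitor induced by STAT3, rose by 3.07 ± 0.48, and Stat3 by 0.53 ± 0.15 (limma adjusted p = 0.00245 and 0.0244). Pim1, a kinase induced by STAT signals, and Jak2, a receptor-bound kinase, rose by 2.40 ± 0.35 and 1.72 ± 0.35 (limma adjusted p = 0.00177 and 0.00669).

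Of 18 genes of the interleukin-1, tumour necrosis factor and NF-kB routes, 15 rose in the model and none fell, with a median difference of 2.10. Of these 15, Il1r2 had no normal library at 1 FPKM and entered the test only through the other groups. Il1b stood at 9.83, 9.55 and 8.55 FPKM in normal, 345, 606 and 617 FPKM in model and 35.2, 397 and 48.4 FPKM in nanozyme lungs. It rose by 5.62 ± 0.78 in the model and was called against normal in the nanozyme group at 3.12 ± 0.78 (limma adjusted p = 0.00148 and 0.0327). Tnf rose by 4.75 ± 0.95 in the model (limma adjusted p = 0.00602) and stood at 1.32, 51.1 and 3.99 FPKM in nanozyme lungs. Its receptor Tnfrsf1b rose by 4.11 ± 0.55 (limma adjusted p = 0.00128).

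Transcription factors of the hepatic response were measured as well. Of 8 tested, Cebpb rose and Cebpa fell in the model, by 1.42 ± 0.34 and -0.63 ± 0.18 (limma adjusted p = 0.0114 and 0.0245). Cebpb, the C/EBP family member tied to interleukin-6 signalling, stood at 157, 167 and 158 FPKM in normal, 449, 501 and 361 FPKM in model and 154, 403 and 160 FPKM in nanozyme lungs. Cebpd, another inducible member, stood at 48.0, 46.1 and 46.6 FPKM in normal, 77.0, 76.5 and 61.1 FPKM in model and 23.1, 81.7 and 40.0 FPKM in nanozyme lungs. It did not pass the test in the model (0.59 ± 0.37, limma adjusted p = 0.230). The counts of 1 higher and 1 lower among 8 do not exceed the shares of 17.4% and 22.7% over all tested genes.

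Receptors and partners of the encoded proteins were mixed. Of 26 tested, 17 rose and 2 fell in the model (Cd36 and Mgst1), with a median difference of 1.24. Fpr2, a formyl-peptide receptor that also binds serum amyloid A, stood at 5.30, 7.37 and 5.61 FPKM in normal, 142, 364 and 213 FPKM in model and 21.0, 160 and 33.2 FPKM in nanozyme lungs. It rose by 4.99 ± 0.67, and the bacterial lipopeptide receptor Tlr2 by 3.98 ± 0.63 (limma adjusted p = 0.00131 and 0.00243). Of the genes that act with Lbp, Cd14 rose by 3.28 ± 0.66 and Tlr4 by 0.87 ± 0.22 (limma adjusted p = 0.00599 and 0.0152). Of the partners of Ptx3, the complement genes C1qa, C1qb and C1qc rose by 2.55 ± 0.16, 3.00 ± 0.18 and 2.79 ± 0.14 (limma adjusted p = 9.34e-05, 9.34e-05 and 5.97e-05). Tnfaip6, a hyaluronan-matrix partner of Ptx3, differed by 0.30 ± 0.36 and did not pass (limma adjusted p = 0.518). Cd163, the macrophage receptor for the haptoglobin-haemoglobin complex, stood at 1.29, 1.41 and 1.07 FPKM in normal and 2.43, 0.764 and 1.08 FPKM in model lungs and did not pass (limma adjusted p = 0.908).

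Profiles were also compared over the 9 libraries by the root mean square difference of standardised log2(FPKM + 1) values, a description in which all genes share the same libraries. Among 12853 genes the profiles nearest to Saa3 were those of Milr1, Mmp9, Myo1f, Wfdc17 and C1qb, with differences of 0.0505 to 0.0708. Milr1, an inhibitory immune receptor, stood at 1.91, 1.81 and 1.56 FPKM in normal, 12.5, 15.5 and 13 FPKM in model and 7.91, 13.2 and 7.50 FPKM in nanozyme lungs. The profiles nearest to Lbp were those of Ankrd1, Ceacam1, Atp5b, Egln3 and Dnpep, and they were less close, at 0.257 to 0.344. Within the set, the closest pair was Saa1 and Saa2 at 0.139, followed by Saa1 and Orm1 at 0.153. Hp and Lbp formed the most distant pair, at 1.23.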

How the data were processed

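RNA from the lungs of 9 mice was enriched for poly(A) RNA and sequenced, per the labels' protocols. The authors deposited 1 table of FPKM values, with 1 column per library. Reads were aligned with HISAT2 to GRCm38, per the submitters' processing notes; the counting tool, strand setting, annotation and filters are not given in the sources used here. FPKM are not counts, so no count test was run. The 8 genes, the companion gene lists and the tests were chosen with earlier results of these data known.

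Values were tested as log2(FPKM + 1) with limma 3.58.1 (R 4.3.3), with an intensity trend, in 1 fit of all 9 libraries with 1 coefficient per group and no covariate. Genes with at least 1 FPKM in at least 3 libraries entered. P-values were adjusted by the Benjamini-Hochberg method over all 14540 genes, with a threshold of 0.05, and the script was tested on simulated data. Fold changes on this scale understate changes of low genes. With 3 against 3 mice an exact permutation test cannot go below 0.10 and was not run. Each library is from a separate mouse, per the labels' protocols.

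Besides the 8 genes, named genes were the called members of each list with the 4 smallest adjusted p-values, a set of always-named inducers, receptors and paralogues, and the 5 profiles nearest to Saa3 and to Lbp among genes with a mean of at least 1 FPKM; a selection is printed. Of the 17 lists, 13 are described. Other settings varied the filter, the pseudocount and the scaling, weighted the libraries, added the replicate number as a block, asked for a change of 2-fold, or dropped each library in turn. Promoters are from RefSeq; transcripts and coordinates are from GENCODE vM21. Relative depth was read from the ratios of values under 0.15 FPKM, which cluster at a common step.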

Additional observations from a re-analysis of the deposited data

How the results depend on the processing

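Across the alternatives tried, the 8 genes kept their direction in model against normal; Hp was called under none of them, and the 6 genes other than Hp and Lbp were called under each one in which they were tested. Saa2 and Ptx3 dropped out of the test when a mean of 5 FPKM was required. Of the single-gene values under an alternative, 465 kept direction and side of the threshold, 22 newly passed it, 8 no longer passed it (all Lbp, model against normal) and 3 changed sign. The sign changes were Cp in nanozyme against normal, at -0.03 with quantile normalization, -0.29 with library weights and -0.35 (without nanozyme replicate 2) to 0.42 with 1 library left out. The cause was not tested.

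Counts moved more. In model against normal, 5824 genes were called, 2390 of them at least 2-fold, and 3836 (without normal replicate 3) to 6590 (without nanozyme replicate 2) with 1 library left out. Higher calls made up 43.4% of these, 54.2% with equal library sums, 55.3% with median-of-ratios scaling and 32.9% when scaled without the 100 most abundant genes; the last 2 moved the median of all genes by 0.13 and -0.11. In nanozyme against model, 0 genes became 9 with no filter and 3034 with library weights, and 0 to 3216 with 1 library left out; of the 8 genes, 7 were called with library weights and 0 to 7 with 1 library left out, the highest in both without nanozyme replicate 2. In nanozyme against normal, 2020 genes became 1285 at a mean of 5 FPKM, 5745 with library weights, 953 at a 2-fold minimum, and 748 (without normal replicate 3; 795 without normal replicate 1) to 2258 with 1 library left out. Of the 8 genes, 2 were called there with a pseudocount of 0.1, 4 with library weights, and 1 to 3 with 1 library left out.

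Same-numbered libraries of different groups had correlated deviations of -0.331 to 0.227, so the numbers do not pair the mice. A fit with the replicate block called 5628, 0 and 1734 genes in the 3 comparisons and 7, 0 and 1 of the 8 genes, and it changed no call of the 8. Precision is limited by 3 mice a group and by an absolute depth that is not known.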

Other observations

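Negative acute-phase genes, which liver makes less of during inflammation, were mostly too low to test here, with 4 of 10 tested. Rbp4, the plasma carrier of retinol, stood at 25.8, 25.1 and 26.7 FPKM in normal, 12.2, 9.19 and 6.08 FPKM in model and 12.6, 9.26 and 12.1 FPKM in nanozyme lungs. It fell in the model by 1.45 ± 0.21 and was also lower in nanozyme than in normal lungs by -1.14 ± 0.21 in log2(FPKM + 1) (limma adjusted p = 0.00195 and 0.0120). Igf1, a growth factor, rose in the model by 0.99 ± 0.15 (limma adjusted p = 0.00212) and stood at 6.03, 8.86 and 6.74 FPKM in nanozyme lungs against 4.88 to 5.69 FPKM in normal. Trf, the plasma iron carrier, stood at 211 to 252 FPKM in normal and 266 to 483 FPKM in model lungs and did not pass the test (0.70 ± 0.27, limma adjusted p = 0.0668).

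The genes beside the orosomucoid cluster on chromosome 4 did not all change in its direction. Akna, 1247 bases after Orm2, rose by 0.86 ± 0.11 in the model, and it was still called higher than normal in the nanozyme lungs at 0.70 ± 0.11 (limma adjusted p = 0.000913 and 0.00440). Its values were 9.26, 8.61 and 8.90 FPKM in normal, 16.7, 15.6 and 18.7 FPKM in model and 14.2, 16.8 and 14.6 FPKM in nanozyme lungs. Replicate 2 was the highest nanozyme library, as for Orm1, and replicates 1 and 3 lay below every model and above every normal library. Col27a1, 9569 bases before Orm1, was called lower in the model at -0.66 ± 0.20 (limma adjusted p = 0.0308). These genes were picked for their position and not for their values.

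The exporter Slc40a1, which moves iron out of cells and works with the ferroxidase Cp, stood at 2.29, 3.20 and 3.24 FPKM in normal, 9.08, 5.80 and 7.43 FPKM in model and 11.1, 8.33 and 8.92 FPKM in nanozyme lungs. It was called higher than normal in both groups, at 1.10 ± 0.18 and 1.42 ± 0.18 (limma adjusted p = 0.00279 and 0.00236). Its nanozyme values lay within or above the model range, also in replicates 1 and 3, where Cp stood at 81.2 and 72.7 FPKM. Slc40a1 and Trf were named after their values were seen.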
